A study of Homo sapiens with 8 samples.

Results

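The 43 genes described here encode the machinery and the regulators of DNA replication and S phase, and were taken by gene symbol and role from a count table of 27696 genes. They were read in normal IMR90 cells, a primary strain of human lung fibroblasts, that had spent 3 days in medium from IMR90 ER:RAS fibroblasts. These donors carry a RAS oncogene fused to an estrogen receptor domain and enter senescence when 4-OHT is added. Media were collected at day 0, 4, 7 or 10 of 4-OHT, and the recipient cells take the names D0, D4, D7 and D10 from it. The recipients carried no ER:RAS construct and were all kept for the same time, and the D0 medium also came from ER:RAS cells, so by their labels the groups differed in the day of the donor culture. Media were conditioned without serum and received a low amount of serum before use. Each group had 1 library from each of 2 independent experiments, which gave 8 libraries.

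Replication is prepared in G1, when the origin recognition complex, CDC6 and CDT1 load the MCM helicase onto DNA. It starts in S phase, when CDC45 and the GINS complex join the helicase and the polymerases, held by the PCNA clamp, copy both strands. Enzymes such as ribonucleotide reductase supply the deoxynucleotides, and the CAF-1 chaperone and DNMT1 rebuild chromatin and DNA methylation behind the fork. Most of these genes are targets of E2F factors, which the RB family restrains outside the cycle, and loss of their expression accompanies the arrest of senescent fibroblasts.

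Libraries held between 11708193 and 13395912 counts, and the 43 genes received between 5810 and 7795 of them. Levels are given as CPM, counts divided by the library size after TMM scaling, and a change is the log2 ratio between groups or, within an experiment, between libraries. Of the 43 genes, 42 passed the filter on low counts. E2F2, an activator of the E2F family, did not, with 0, 1, 1 and 5 counts at D0, D4, D7 and D10 in experiment 1 and 6, 6, 12 and 4 in experiment 2. The cells carried the fibroblast markers COL1A1, COL1A2, COL3A1, VIM, THY1, PDGFRB and FN1 in every library, whereas summed epithelial markers stayed at or under 1.37 CPM, endothelial markers at or under 3.90 CPM and leukocyte markers at or under 3.35 CPM. The D10 library of experiment 2 stood apart, since its 7 fibroblast markers summed to 19959 CPM, against 39454 to 52925 CPM in the other 7 libraries. Its part in the values below was not tested, and the main values are given without it as well. With the experiment as a block, 1 of the 7 markers, PDGFRB, was called lower at D10 than D0 (edgeR with Benjamini-Hochberg adjustment, adjusted p = 0.0181, and 0.151 without the block). The same fit called 4.99% of all genes in this comparison. In RNA from whole cultures, fewer cycling cells and less RNA per cell cannot be told apart.

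Sequence was examined first, because it is a property that the choice of these genes did not use. RefSeq (GRCh38.p14) promoters, from 250 bases before to 50 bases after a gene's start, were at hand for 39 of the 43 genes, with 50 starts in all, and not for MCM4, MCM5, GINS4 and CCNE2. They were searched on both strands for the E2F words TTGGCGC, with its variants spelled TTGCCGC, further TTCGCGC, plus TTCCCGC. Words on opposite strands can overlap. At least 1 word lay in a promoter of 33 of the 39 genes (84.6%), against 4169 of 27305 genes (15.3%) among all promoters given. Counted by start, 35 of 50 promoters (70%) held a word, against 13% of 35116. ORC6, MCM10, CDC45, POLD1, FEN1 and CCNE1 had none in this window. In contrast, the cell cycle homology words, spelled TTTGAA or else TTCGAA, which mark many genes of mitosis, lay in 2 of the 39 genes (5.13%), MCM6 and RRM1, against 19.5% of all genes. Among 20 mitosis genes with a promoter, 15 (75%) held a cell cycle homology word and 5 (25%) an E2F word. A match is a description of the letters and not a binding site.

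The windows below are those of genes whose values the comparisons turn on, each read 5′ to 3′ on the strand of its gene, with the E2F words in capitals. Those of CLSPN, GINS3 and TK1 hold the same word, TTCCCGC, on the other strand (read as GCGGGAA), within 12 bases of the start. RRM2 has its word, TTGGCGC on the other strand, from base -192 to -186 before the start used. RRM2 and TK1 each have another start whose promoter holds no E2F word. In MCM2 words on both strands overlap to form a palindrome of 10 bases. The windows are chr2:10122364-10122393 on the plus strand for RRM2, chr17:78187047-78187076 on the minus strand for TK1, chr17:40287875-40287904 on the plus strand for CDC6, chr16:58392454-58392483 on the plus strand for GINS3, chr20:25407666-25407695 on the plus strand for GINS1, chr1:35769966-35769995 on the minus strand for CLSPN, chr3:127598402-127598431 on the plus strand for MCM2 and chr20:33686387-33686416 on the minus strand for E2F1.
RRM2: cggggcccgcgcGCGCCAAggccgccgaga
TK1: aaagcggtcggcGCGGGAAccaggggctta
CDC6: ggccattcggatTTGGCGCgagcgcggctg
GINS3: gcgtccccgggcGCGGGAAacgagtttcaa
GINS1: tagctttgttcgGCGCCAAagcgcggagcg
CLSPN: cactctggctggGCGGGAAagcaagaacag
MCM2: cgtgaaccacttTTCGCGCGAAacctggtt
E2F1: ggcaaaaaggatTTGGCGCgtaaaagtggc

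A longer stretch is shown for MCM6, the gene with most words in 1 promoter (4, of which 2 that overlap lie in this stretch), and for CHAF1A, whose promoter holds a word of each of 2 kinds. These are the 100 bases before the start, at chr2:135876444-135876543 on the minus strand for MCM6 and chr19:4402540-4402639 on the plus strand for CHAF1A.
MCM6: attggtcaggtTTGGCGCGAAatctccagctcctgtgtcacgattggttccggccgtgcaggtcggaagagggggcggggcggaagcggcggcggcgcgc
CHAF1A: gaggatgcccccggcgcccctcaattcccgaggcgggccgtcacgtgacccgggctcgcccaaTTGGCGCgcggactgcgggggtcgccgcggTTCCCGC

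**Figure D1:**
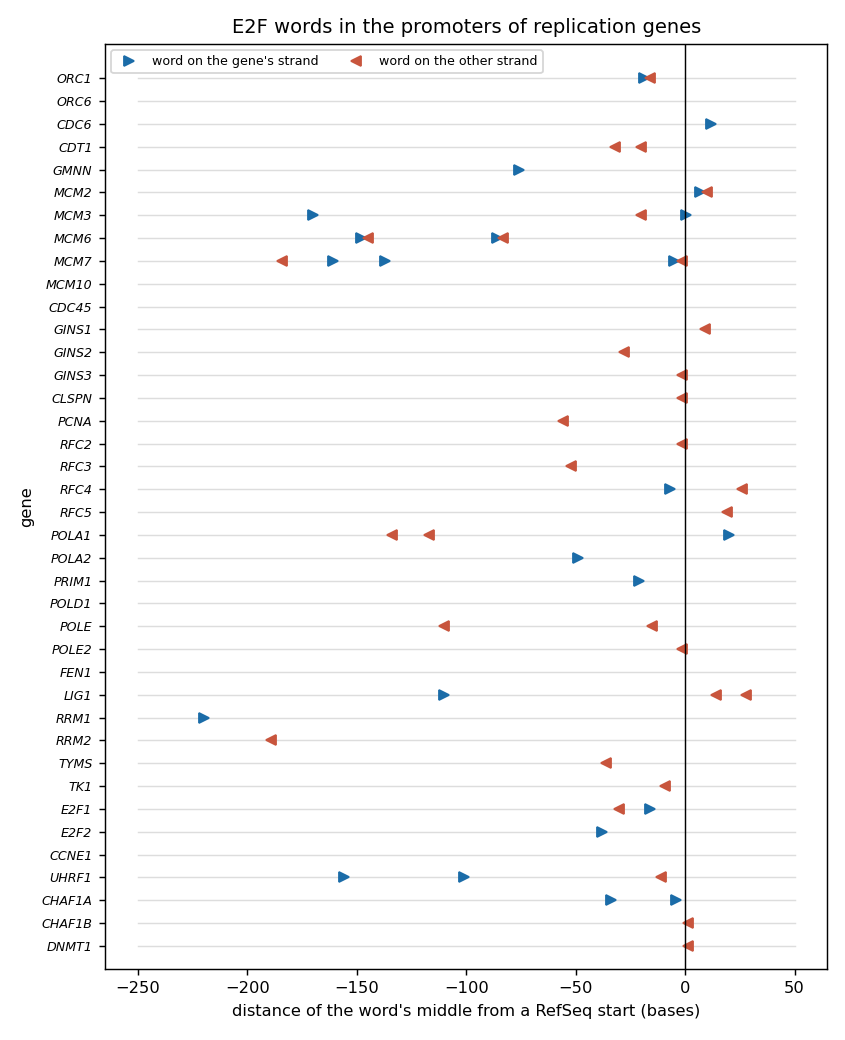
Position of the E2F words in the promoters of 39 replication genes, with the distance in bases of the middle of each word from a RefSeq start on the x axis, blue for words on the strand of the gene and red for words on the other strand. 33 genes have at least 1 word, and the 6 empty lines are ORC6, MCM10, CDC45, POLD1, FEN1 and CCNE1.

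Taken as a group, the 43 genes were higher in cells given D4 and D7 medium than D0 medium in experiment 2 and nearly level in experiment 1. After TMM scaling their sum was lowest at D10. In the order of days, their summed CPM was 487, 509, 510 and 476 in experiment 1, and 485, 581, 589 and 468 in experiment 2. With this scaling D10 thus gave the lowest sum in both experiments, close to that of D0. Before scaling, the genes received 6658 of 13173746 counts at D0 and 5938 of 11708193 at D10 in experiment 2. By library totals alone D10 was therefore not the lowest in that experiment.

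At D4 the median within-experiment log2 change of the 42 tested genes was 0.03 in experiment 1 and 0.29 in experiment 2, against medians of 0.00 for all genes tested in both. In experiment 1, 23 of the 42 were higher at D4 than at D0, close to the background of 50.2% of all genes, and in experiment 2 34 of the 42 were higher, against 50.7%. By the library totals alone, without TMM, 26 and 32 were higher. Both experiments gave a higher value for 22 of the 42, against 29.8% of all genes. A lower value in both was found for 7 of the 42, against 3989 of the 13798 genes tested. The ranges of the D0 and D4 libraries did not overlap for 15 genes that were higher at D4 (background 9.73%) and for 1 that was lower, CHAF1B (background 12.6%).

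At D7 the medians were 0.06 and 0.25 in experiments 1 and 2. Here 24 of 42 genes were higher than at D0 in experiment 1 (50.1% of all genes) and 35 in experiment 2 (50.2%). Without overlap, 15 genes were higher (13.7%) and 1, GINS1, was lower (15.2%). By library totals alone, 27 genes were higher in experiment 1.

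At D10 the medians against D0 were -0.06 and -0.11. There were 24 genes lower than at D0 in experiment 1 (49.8% of all genes) and 29 in experiment 2 (51.4%), and with scaling by library totals alone 25 and 24. The D0 and D10 libraries did not overlap for 11 genes that were lower at D10 (16.0%), among them CDC6, GINS1, GINS2, GINS3 and MCM2, and for 1 that was higher, DNMT1 (15.0%).

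None of the 42 genes passed the test at any day. With edgeR's quasi-likelihood test, Benjamini-Hochberg adjustment over 13798 genes and a threshold of 0.05, 0 of 42 were called at D4, D7 and D10 against D0 and at D10 against D4, where 0%, 0%, 0.290% and 0.00725% of all genes were called. At an unadjusted p under 0.05 there were 1, 0, 2 and 3 of the 42, against 2.96%, 4.34%, 7.94% and 5.70% of all genes. With the experiment as a block, edgeR again called 0 of the 42 in each comparison, where it called 0.275%, 1.25%, 4.99% and 2.55% of all genes, and 1, 1, 4 and 9 members had an unadjusted p under 0.05, against 8.15%, 10.6%, 18.2% and 18.3% of all genes. DESeq2 called 0 of them too, against 0.287%, 0.785%, 2.17% and 0.938% of genes with an adjusted p, and 1, 0, 0 and 3 had an unadjusted p under 0.05, against 2.87%, 4.24%, 7.71% and 5.73% of all genes. The changes below are therefore given as values, and the words higher and lower refer to the libraries measured.

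**Figure D2:**
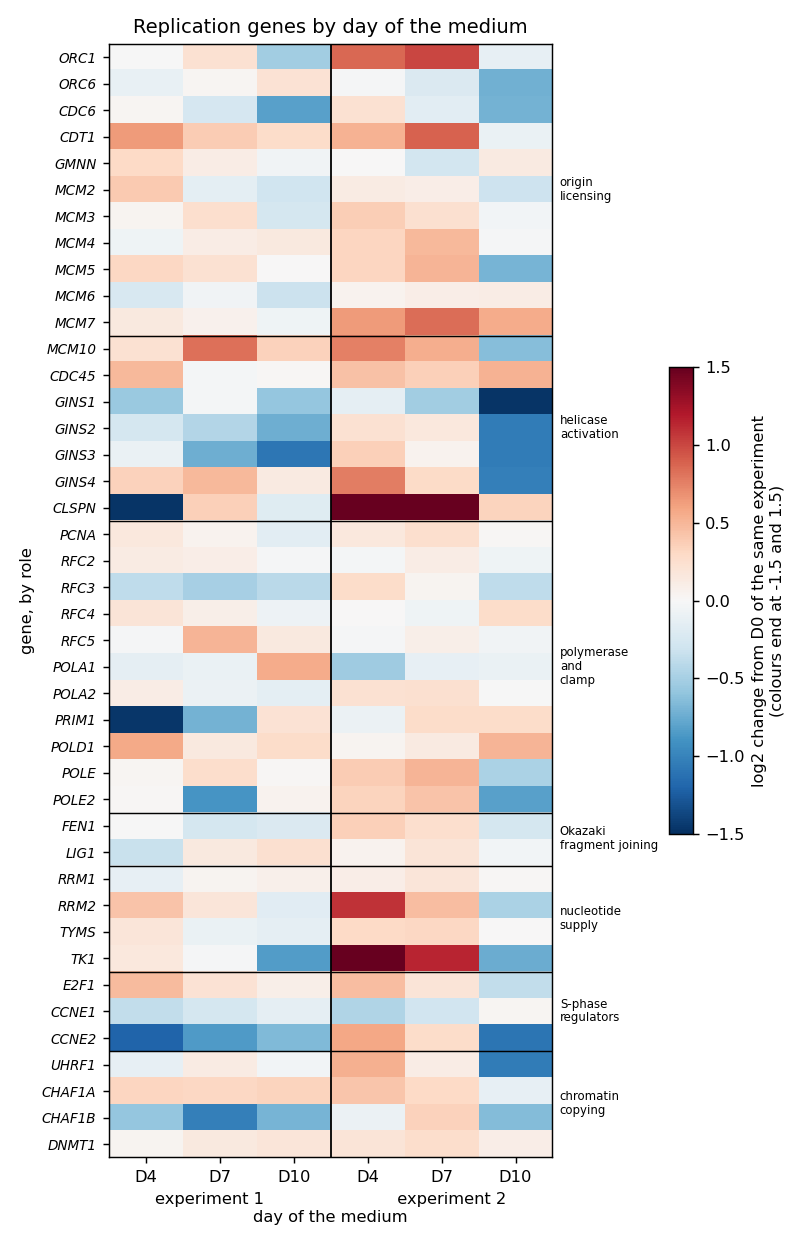
Log2 change of each of the 42 tested genes from the D0 library of the same experiment, with genes in rows by role and the day of the medium in columns for experiments 1 and 2. Red is higher and blue lower, with colours ending at -1.5 and 1.5. At D4, 34 genes are red in experiment 2 and 23 in experiment 1, and GINS1, GINS2 and GINS3 are blue at D10 in both.

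Origin licensing comprised 11 genes. At D4 their median change was 0.04 in experiment 1 and 0.32 in experiment 2, and at D10 -0.07 and -0.10. CDC6, the ATPase that recruits the helicase to origins, had 4.02, 4.11, 3.36 and 2.22 CPM at D0, D4, D7 and D10 in experiment 1 and 5.53, 6.49, 4.94 and 3.31 CPM in experiment 2. It was lowest at D10 in both experiments, and its D10 libraries lay below all others of their own experiment. CDT1, which loads the MCM ring together with CDC6, was at 3.44, 5.43, 4.51 and 4.20 CPM in experiment 1 and 3.06, 4.47, 5.77 and 2.84 CPM in experiment 2. Both D4 and both D7 libraries exceeded both D0 libraries. Geminin (GMNN), the inhibitor of CDT1, ranged from 4.75 to 6.78 CPM with no common order of days, and was highest at D4 in experiment 1 and at D10 in experiment 2.

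ORC1, the largest subunit of the origin recognition complex, had few counts, with 13, 14, 17 and 9 at D0, D4, D7 and D10 in experiment 1 and 12, 23, 25 and 10 in experiment 2. It was highest at D7 and lowest at D10 in both. Its log2 fold change at D7 was 0.70 ± 0.47 (SE, n = 2 libraries per group, edgeR with Benjamini-Hochberg adjustment, adjusted p = 1). ORC6, another subunit, stayed between 4.10 and 6.84 CPM and was lowest in the D10 library of experiment 2. Of its exon sequence, 8.85% of 50-base words also occur in other genes.

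The MCM genes encode the 6 subunits of the replicative helicase. Per kilobase of exon the mean levels over the 8 libraries were 7.63 CPM for MCM7, 5.89 for MCM3, 5.27 for MCM6, 3.89 for MCM4, 1.87 for MCM2 and 1.55 for MCM5, on the scale of CPM per kilobase. They differed in their course. MCM7 was at 31.0, 34.2, 32.5 and 29.6 CPM at D0, D4, D7 and D10 in experiment 1 and at 24.1, 37.6, 43.1 and 35.6 CPM in experiment 2. Its D10 level was below D0 in the first and above D0 in the second. MCM2 was at 9.22, 12.1, 8.33 and 7.44 CPM in experiment 1 and 9.10, 9.92, 9.72 and 7.34 CPM in experiment 2, highest at D4 and lowest at D10 in both. AC023593.1 and TPRA1, on the opposite strand, cover 23.6% of the MCM2 exon bases. After TMM scaling MCM3 was also lowest at D10 in both experiments, with 17.2 and 19.2 CPM against 20.7 and 19.9 CPM at D0. In experiment 2 it received 244 of 11708193 counts at D10 and 273 of 13173746 at D0. By library totals alone D10 was therefore not its lowest day there. MCM5 had 11.4, 14.2, 13.4 and 11.4 CPM in experiment 1 and 9.46, 11.9, 13.6 and 5.76 CPM in experiment 2, so that its D10 value was at the D0 level in the first and the lowest of all 8 in the second. MCM4 and MCM6 showed no common course. MCM4 ranged from 23.0 to 35.5 CPM, and MCM6 from 17.3 to 24.7 CPM, its lowest and highest values being the 2 D10 libraries.

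Helicase activation comprised 7 genes, of which 3, all of the GINS complex, were lower at D10 than D0 in both experiments. Among all genes tested, 4461 of 13798 were lower in both. The median log2 change of the 7 genes at D10 against D0 was -0.19 in experiment 1 and -1.02 in experiment 2, and at D4 it was -0.10 and 0.45. The 4 GINS genes encode the complex that clamps CDC45 to the helicase. GINS3 had 2.01, 1.86, 1.15 and 0.871 CPM at D0, D4, D7 and D10 in experiment 1, and 1.31, 1.71, 1.37 and 0.552 CPM in experiment 2. Both D10 libraries, with 11 and 7 counts, lay below the other 6. Its log2 fold change at D10 against D0 was -1.21 ± 0.47 (SE, n = 2 libraries per group, edgeR with Benjamini-Hochberg adjustment, adjusted p = 0.530). GINS1 was at 3.27, 2.17, 3.21 and 2.14 CPM in experiment 1 and at 3.79, 3.43, 2.58 and 1.26 CPM in experiment 2. The order of days differed between the experiments, but D10 was lowest in both, with a log2 fold change of -1.05 ± 0.43 (SE, n = 2 per group, edgeR with Benjamini-Hochberg adjustment, adjusted p = 0.568).

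At D7 the log2 fold changes were -0.39 ± 0.45 (SE) for GINS3 and -0.28 ± 0.41 for GINS1. GINS2 followed the same direction at D10, with 3.77 and 2.77 CPM at D0 and 2.22 and 1.26 CPM at D10 in experiments 1 and 2. GINS4 differed between the experiments. It had 10.8, 13.7, 15.2 and 11.9 CPM in experiment 1 and 10.3, 17.5, 12.5 and 4.97 CPM in experiment 2, where D4 was the highest and D10 the lowest of all 8 libraries. Antisense genes cover 23.6% of its exons. CDC45 stayed between 1.15 and 2.05 CPM and was above D0 at D4 in both experiments, with 1.71 against 1.17 CPM and 1.94 against 1.38 CPM, and its log2 fold change at D10 was 0.34 ± 0.47 (SE). MCM10, which helps to activate the loaded helicase, had 10, 13, 21 and 14 counts in experiment 1 and 18, 31, 26 and 10 in experiment 2. Both D7 libraries exceeded both D0 libraries, with a log2 fold change of 0.72 ± 0.53 (SE, n = 2 per group, edgeR with Benjamini-Hochberg adjustment, adjusted p = 1), whereas its D10 library was above D0 in experiment 1 and below it in experiment 2.

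CLSPN, the checkpoint mediator claspin that travels with the fork, gave opposite changes at D4. Its counts were 11, 3, 16 and 10 at D0, D4, D7 and D10 in experiment 1 and 9, 31, 38 and 11 in experiment 2. The D4 value was thus the lowest of experiment 1 (ratio of D4 to D0 0.253, 95% counting interval 0.0452 to 0.956). In experiment 2 it was above D0 (ratio of D4 to D0 3.53, 95% counting interval 1.64 to 8.43). Without the D4 library of experiment 2 its log2 fold change at D4 turned from 0.70 ± 0.90 (SE) to -1.71. At D7 it was above D0 in both experiments, with the largest log2 fold change of the 42 genes at that day, 1.38 ± 0.89 (SE, n = 2 per group, edgeR with Benjamini-Hochberg adjustment, adjusted p = 1).

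The polymerases and the clamp comprised 11 genes with little change as a group. Their median change was between -0.05 and 0.13 in each experiment at D4, D7 and D10 against D0. PCNA, the sliding clamp, had the highest level per length of the 43 genes, 36.6 CPM per kilobase of exon. It had 51.2, 57.1, 53.1 and 45.7 CPM at D0, D4, D7 and D10 in experiment 1 and 52.0, 57.8, 61.9 and 52.5 CPM in experiment 2. Both D4 libraries and both D7 libraries lay above both D0 libraries, with ratios of D4 to D0 of 1.12 and 1.11. The clamp loader genes RFC2 (8.44 to 10.2 CPM), RFC4 (5.30 to 10.4 CPM) and RFC5 (3.80 to 6.38 CPM) showed no common order of days. RFC3, the remaining loader subunit among the 43 genes, ran from 1.91 to 2.77 CPM in experiment 1 and from 3.55 to 5.67 CPM in experiment 2, so that the experiments did not overlap.

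In the primase-polymerase complex, which lays the first primer on each new strand, PRIM1 and POLA1 were lower at D4 than D0 in both experiments. POLA2 was higher in both. Outside the complex, CCNE1, ORC6, GINS1, RFC5 and CHAF1B were also lower in both. PRIM1, the catalytic primase subunit, had 16, 5, 10 and 20 counts in experiment 1 and 22, 20, 26 and 25 in experiment 2. D4 was its lowest day in both, although in experiment 2 only with 20 against 22 counts at D0, and the log2 fold change of -0.64 ± 0.69 (SE) at D4 turned to 0.01 without the D4 library of experiment 1. At D10 the log2 fold change was 0.27 ± 0.66 (SE). POLA1, the catalytic polymerase subunit, had 4.11, 3.72, 3.82 and 6.10 CPM in experiment 1 and 7.93, 5.44, 7.29 and 7.41 CPM in experiment 2, again lowest at D4 in both. Its log2 fold change at D4 was -0.40 ± 0.45 (SE) and turned to 0.16 without the D0 library of experiment 2. POLA2 ranged from 13.6 to 21.7 CPM and after TMM scaling was lowest at D10 in both experiments. In experiment 2 this was 13.65 against 13.68 CPM at D0, and by library totals alone D10 was not the lowest. An overlapping gene on the same strand shares 35.1% of its exon bases. PRIM1 is also overlapped, over 16.2% of its exon bases on the same strand.

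POLD1, the catalytic subunit of polymerase delta, was above D0 on every later day in both experiments. It had 6.62, 9.86, 7.33 and 8.08 CPM in experiment 1 and 8.15, 8.43, 8.96 and 11.7 CPM in experiment 2. Its log2 fold change at D10, 0.42 ± 0.30 (SE, n = 2 per group, edgeR with Benjamini-Hochberg adjustment, adjusted p = 0.983), was the largest above 0 among the 42 genes. The leading-strand polymerase gene POLE was at 14.8, 15.1, 17.9 and 15.0 CPM in experiment 1 and 14.0, 18.3, 20.0 and 10.1 CPM in experiment 2, highest at D7 in both. Its partner POLE2 had between 5 and 20 counts per library and was lowest at D7 in experiment 1 and at D10 in experiment 2.

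FEN1 and LIG1, the nuclease and ligase that join Okazaki fragments, stayed within 7.26 to 11.6 CPM and 6.91 to 12.4 CPM. FEN1 was below D0 at D10 in both experiments, with 9.98 against 11.6 CPM and 7.26 against 8.73 CPM. LIG1 was at its lowest at D4 in experiment 1, with 6.91 CPM, and between 10.6 and 12.4 CPM on all days of experiment 2.

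Nucleotide supply held the genes with the largest fold changes at D4, RRM2 and TK1. RRM2 (ENSG00000171848.14, chromosome 2, 10120698 to 10131419), the subunit of ribonucleotide reductase that is made in S phase, had 5.36, 7.29, 6.11 and 4.75 CPM at D0, D4, D7 and D10 in experiment 1 and 5.97, 12.8, 8.28 and 4.26 CPM in experiment 2. Days ranked alike in both experiments, with D4 above D7 above D0 above D10, and D4 did not overlap D0. At D4 the log2 fold change of 0.83 ± 0.35 (SE, n = 2 per group, edgeR with Benjamini-Hochberg adjustment, adjusted p = 1) was the largest of the 42 genes and the only one with an unadjusted p under 0.05. On the same strand, another gene covers 20.2% of its exon bases. TK1 (ENSG00000167900.11, chromosome 17, 78174075 to 78187233), the thymidine kinase of cycling cells, had 8.21, 9.16, 8.10 and 4.51 CPM in experiment 1 and 3.28, 9.47, 7.44 and 1.89 CPM in experiment 2. The experiments differed at D0 and met at D4, and D10 was lowest in both. Its log2 fold change at D4 was 0.70 ± 0.51 (SE, n = 2 per group, edgeR with Benjamini-Hochberg adjustment, adjusted p = 1).

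RRM1, the partner of RRM2 that cells keep through the cycle, had 50.5, 46.6, 52.0 and 53.3 CPM in experiment 1 and 55.0, 59.0, 62.4 and 55.5 CPM in experiment 2. TYMS, thymidylate synthase, had 22.5, 25.5, 21.0 and 20.4 CPM in experiment 1 and 23.9, 29.4, 29.5 and 23.9 CPM in experiment 2. With TMM scaling both D4 libraries exceeded both D0 libraries, and the D10 level was at or below D0. ENOSF1 and TYMSOS, read from the other strand, cover 46.6% of the TYMS exon bases.

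Among the S-phase regulators, E2F1 was at 7.71, 10.8, 9.01 and 8.23 CPM in experiment 1 and at 4.95, 6.86, 5.70 and 3.79 CPM in experiment 2. It was highest at D4 in both experiments, with nearly the same change within each (log2 0.48 and 0.46), although experiment 1 lay above experiment 2 on every day. CCNE1, the cyclin that drives entry into S phase, ran the other way. It had 11.1, 8.54, 9.17 and 10.1 CPM in experiment 1 and 7.28, 5.29, 5.92 and 7.41 CPM in experiment 2, lowest at D4 in both, with a log2 fold change of -0.41 ± 0.39 (SE, n = 2 per group, edgeR with Benjamini-Hochberg adjustment, adjusted p = 1). At D7 it was -0.28 ± 0.38 (SE). CCNE2, its paralogue, had only 13, 5, 7 and 8 counts in experiment 1 and 28, 42, 33 and 11 in experiment 2. It was lower at D10 than D0 in both, with a log2 fold change of -1.06 ± 1.02 (SE), but its highest day was D0 in one and D4 in the other. Antisense genes cover 37.1% of its exons.

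The genes that copy chromatin showed no common course. CHAF1A, the large subunit of CAF-1, had 10.1, 12.6, 12.5 and 12.7 CPM in experiment 1 and 9.83, 13.1, 12.2 and 8.99 CPM in experiment 2, with all D4 and D7 libraries above both D0 libraries. CHAF1B, its partner subunit, was lower than D0 on every later day of experiment 1, from 3.44 CPM to 2.25, 1.60 and 2.06 CPM. In experiment 2 it had 3.42, 3.21, 4.40 and 2.13 CPM. DNMT1, the maintenance methyltransferase, was above D0 on every later day in both experiments, from 59.8 CPM to 61.5, 66.0 and 68.1 CPM and from 60.7 CPM to 69.3, 72.8 and 65.1 CPM. UHRF1, which brings DNMT1 to new DNA, had 6.28, 5.74, 6.87 and 6.10 CPM in experiment 1, lowest at D4. In experiment 2 it had 7.21, 10.5, 7.82 and 3.39 CPM, highest at D4 and lowest at D10. Of the 50-base words in its exons, 21.1% occur in other genes as well.

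**Figure D3:**
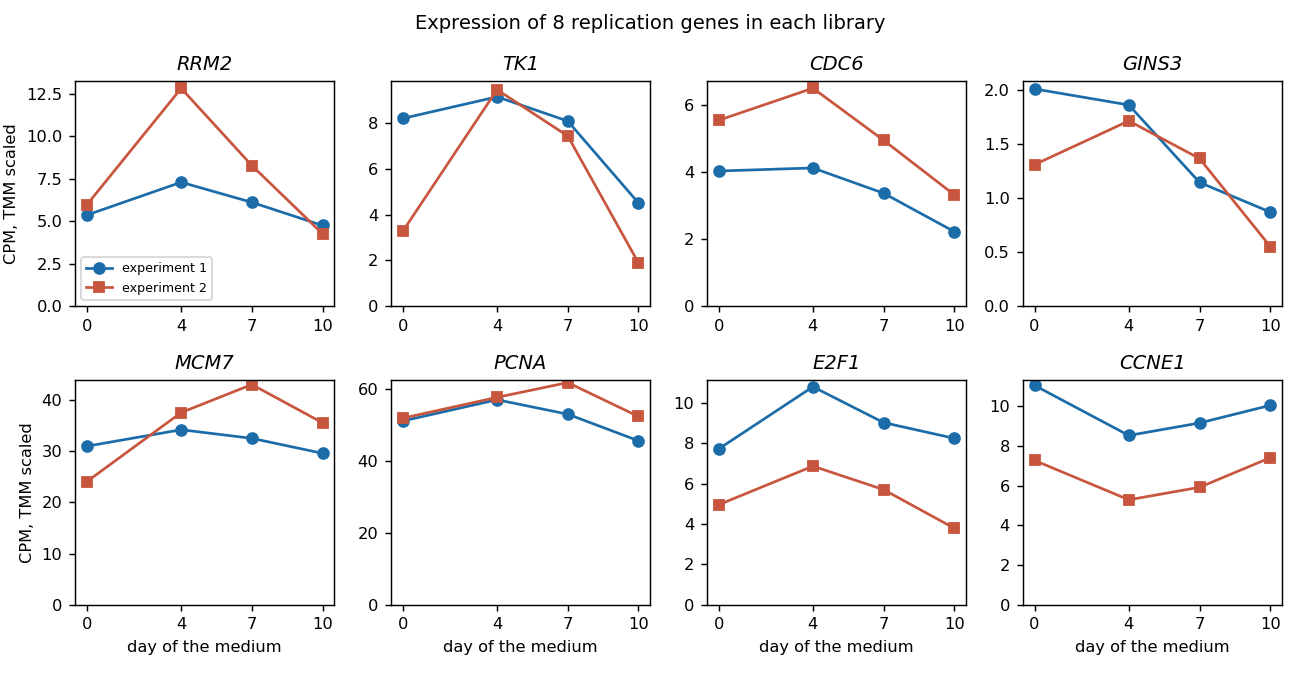
CPM of RRM2, TK1, CDC6, GINS3, MCM7, PCNA, E2F1 and CCNE1 by day of the medium, with 1 point for each library, blue circles for experiment 1 and red squares for experiment 2, and y axes starting at 0. RRM2, TK1 and E2F1 peak at D4 in both experiments, and CCNE1 is lowest there.

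The D4 level was then compared with the D10 level. Over the 42 genes the median log2 change at D10 against D4 was -0.18 in experiment 1 and -0.55 in experiment 2, where all genes had 0.00 and -0.02. In experiment 1, 27 of 42 genes were lower at D10 (49.6% of all genes), and in experiment 2 34 were lower (51.6%). By library totals alone these were 29 and 28. Both experiments gave a lower value for 22 genes, against 28.1% of all genes. The D4 and D10 libraries did not overlap for 17 genes that were lower at D10 (12.6%) and for 2, PRIM1 and POLA1, that were higher (13.1%).

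TK1 had the largest difference, with 4.51 against 9.16 CPM in experiment 1 and 1.89 against 9.47 CPM in experiment 2. Its log2 fold change was -1.54 ± 0.52 (SE, n = 2 per group, edgeR with Benjamini-Hochberg adjustment, adjusted p = 0.676, and 0.0675 with the experiment as a block). GINS3 was next, at -1.32 ± 0.47 (SE, edgeR with Benjamini-Hochberg adjustment, adjusted p = 0.728). RRM2, added after its values were seen, was at -1.16 ± 0.35 (SE) and had the lowest adjusted p of the 42 genes in this comparison (edgeR with Benjamini-Hochberg adjustment, 0.556, and 0.0766 with the block). CDC6, added likewise, was at -0.94 ± 0.41 (SE, edgeR with Benjamini-Hochberg adjustment, adjusted p = 0.886) and changed by nearly the same amount in each experiment, -0.85 and -0.94.

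In other genes the size depended on the experiment. GINS4 was lower by -0.21 in experiment 1 and -1.79 in experiment 2, and in the fit by -0.89 ± 0.40 (SE). For UHRF1 the values were 0.08 and -1.59, for MCM10 0.12 and -1.39, and for POLE -0.02 and -0.85. CCNE2, with 5 to 42 counts, was 0.54 in experiment 1, -1.68 in experiment 2 and -1.22 ± 1.01 (SE) in the fit, and CLSPN 1.29 and -1.27, so that both turned their sign between experiments. Of the 2 most abundant members of each role, some differed less between D4 and D10, although GINS4, also among them, did not. The log2 fold changes were -0.14 ± 0.24 (SE) for MCM7, -0.08 ± 0.25 for MCM4, -0.23 ± 0.19 for PCNA, 0.04 ± 0.21 for RRM1 and 0.03 ± 0.19 for DNMT1. They were -0.25 ± 0.29 for POLA2, 0.20 ± 0.31 for LIG1, -0.31 ± 0.24 for TYMS and -0.24 ± 0.26 for CHAF1A. Among the others named for their level, GINS2 was at -0.87 ± 0.41, E2F1 at -0.55 ± 0.47 and FEN1 at -0.41 ± 0.28. For DNMT1 the 95% interval of the difference was -0.41 to 0.46, and for PCNA it was -0.68 to 0.22, so that a log2 change of 1 lay outside both intervals. Higher at D10 than D4 were PRIM1 (0.91 ± 0.68, SE), POLA1 (0.56 ± 0.45) and CCNE1 (0.34 ± 0.39), each in both experiments.

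**Figure D4:**
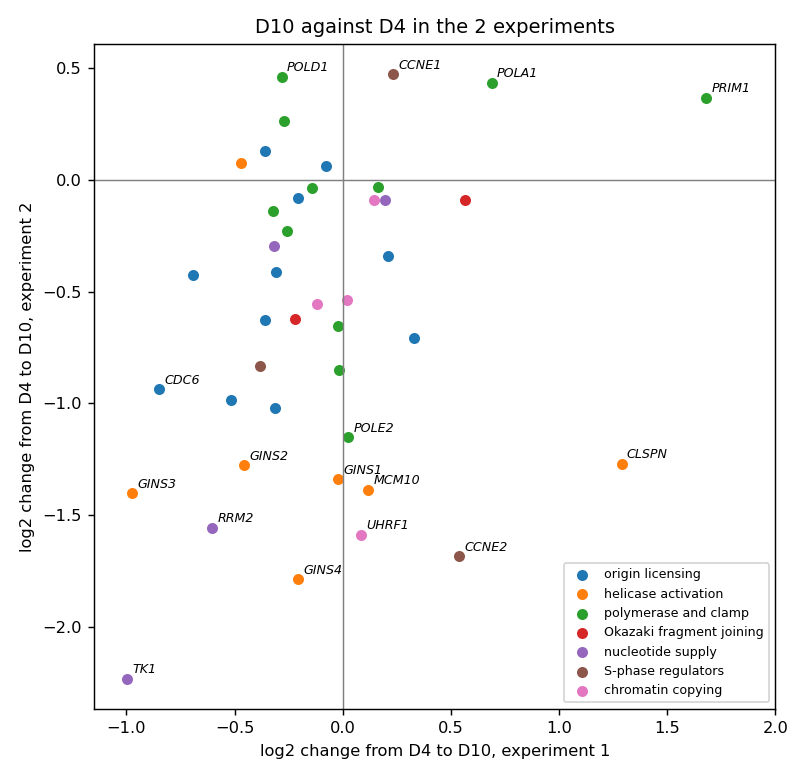
Log2 change from D4 to D10 of the 42 genes, with experiment 1 on the x axis, experiment 2 on the y axis and 1 point for each gene, coloured by role. The lower left corner holds 22 genes, with TK1 farthest from 0, and PRIM1, POLA1 and CCNE1 are above 0 in both.

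Counting error was assessed for each gene within an experiment, with exact intervals of the ratio of 2 libraries. These compare libraries and not conditions, and cover counting error only. At D4 against D0 the 95% interval lay above 1 for 6 of the 43 genes in experiment 1 (CDT1, MCM2, GINS4, PCNA, POLD1 and E2F1), against 19.7% of all genes, and for 15 in experiment 2, against 20.3%. GINS4, PCNA and E2F1 were in both sets. The interval lay below 1 for 2 genes in each experiment. At D10 against D4 it lay below 1 for 11 genes in experiment 1 (24.9% of all genes) and for 24 in experiment 2 (29.6%). CDC6, MCM2, MCM3, GINS3, RRM2, TYMS, TK1 and E2F1 were below 1 in both. The interval lay above 1 for 5 genes in experiment 1 and 2 in experiment 2. For these opposite directions the share of all genes is not given here. For TK1 the ratio was 0.493 (0.353 to 0.682) in experiment 1 and 0.200 (0.124 to 0.311) in experiment 2, and for RRM2 it was 0.651 (0.463 to 0.910) and 0.332 (0.240 to 0.453).

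The day of the highest level was counted in each experiment. In experiment 1, 16 of 42 genes (38.1%) were highest at D4, against 30.5% of all genes, and 17 (40.5%) were lowest at D10, against 27.5%. In experiment 2, 15 genes (35.7%) were highest at D4 and 18 (42.9%) at D7, against 21.5% and 21.9% of all genes, and 28 (66.7%) were lowest at D10, against 36.4%. At D0 and D10 the experiments had nearly the same median level, with log2 differences of 0.05 and -0.04 for experiment 2 minus experiment 1. At D4 and D7 experiment 2 was higher, by 0.31 and 0.23, in 32 of 42 genes on each day.

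Genes of mitosis, which follow replication in the cycle, gave a larger difference between the experiments. In experiment 1 the 26 genes had medians of 0.04 (D4), 0.21 (D7) and -0.14 (D10) relative to D0, and of -0.18 for D10 against D4. In experiment 2 these were 1.07, 0.59, -0.74 and -1.79. All 26 were lower at D10 than D4 in experiment 2 and 16 of 26 in experiment 1. MKI67, a marker of cycling cells, had 4.69, 4.81, 8.55 and 9.58 CPM in experiment 1, highest at D10, and 6.55, 24.8, 16.3 and 3.47 CPM in experiment 2, lowest at D10. From D4 to D10 the marker thus differed in opposite directions in the experiments, while 16 of the 26 mitosis genes, like 22 of the 42 replication genes, were lower in both. The edgeR test called 0 of the 26 mitosis genes in the 4 comparisons, with or without the block, and DESeq2 called 0. An unadjusted p under 0.05 was reached by 1, 0, 0 and 10 with edgeR, against 2.96%, 4.34%, 7.94% and 5.70% of all genes. With the block these were 5 higher at D4, 1 higher and 1 lower at D7, 1 lower at D10 and 15 lower at D10 against D4. The shares of all genes were then 8.15%, 10.6%, 18.2% and 18.3%. With DESeq2 there were 2, 0, 0 and 12, against 2.87%, 4.24%, 7.71% and 5.73%.

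**Figure D5:**
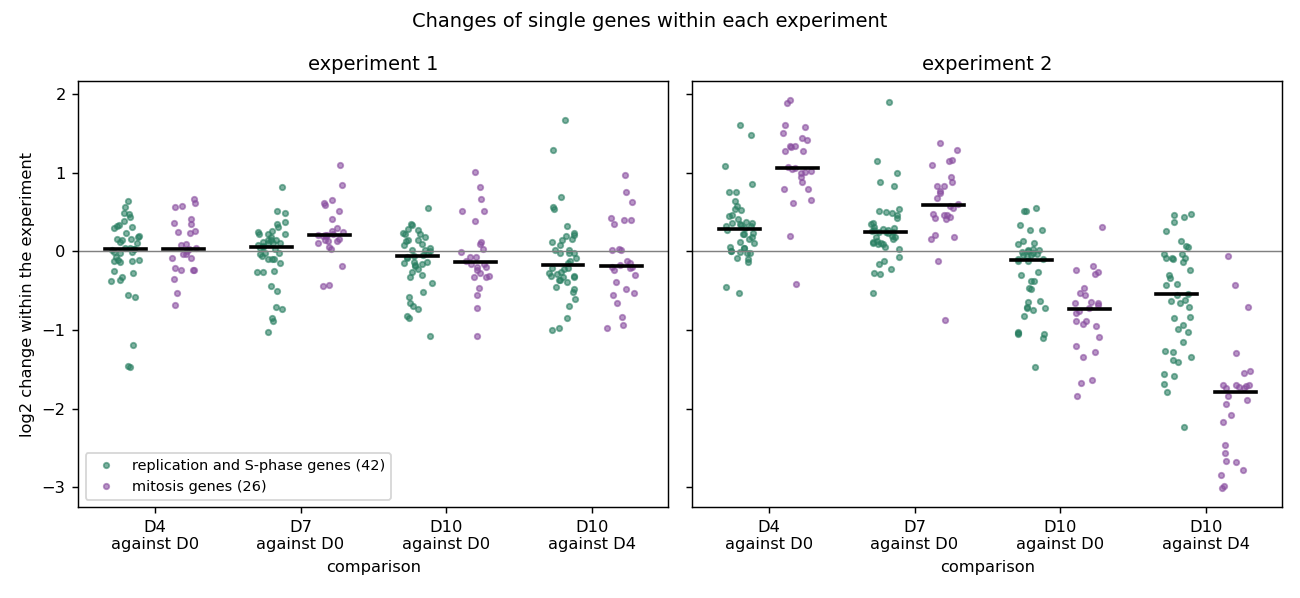
Log2 changes within experiment 1 (left) and experiment 2 (right) for the 42 replication and S-phase genes (green) and 26 mitosis genes (purple), with 1 point for each gene and black bars at the medians. In experiment 2 the medians at D10 against D4 are -0.55 and -1.79, and in experiment 1 both are -0.18.

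Further genes around replication were read as 4 lists, of which edgeR, with or without the block, and DESeq2 called 0 genes in the 4 comparisons. An unadjusted p under 0.05 was reached by 0 of their genes without the block and with DESeq2. With the block it was reached by 1, 3, 1 and 4 of the 38 other replication genes at D4, D7, D10 and D10 against D4, and by at most 2 genes of each other list in a comparison. Of all genes, 8.15%, 10.6%, 18.2% and 18.3% reached it with the block. The 38 other replication genes, among them the RPA single-strand binding proteins, ORC2 to ORC5 and the CDC7 kinase, had median fitted changes of -0.01 (D4), -0.05 (D7), 0.09 (D10) and 0.02 (D10 against D4). At D10 against D4, 19 of the 38 were lower in experiment 1 and 17 in experiment 2. In the same order, the 8 histone chaperones and remodellers had medians of 0.05, 0.05, 0.11 and 0.11, and the 14 tested genes of S-phase repair and checkpoint 0.03, 0.14, -0.02 and -0.21. The 7 CDK inhibitors had 0.08, -0.28, 0.03 and -0.21.

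In the E2F and RB pathway, 21 of 22 genes were tested, with medians of -0.01, 0.05, -0.07 and -0.03. Without the block edgeR called 0 of them, and 2, 2, 3 and 2 had an unadjusted p under 0.05, against 2.96%, 4.34%, 7.94% and 5.70% of all genes. With the experiment as a block, 3 of them, singled out here after their values were seen, were called. The block called 1.25% of all genes at D7, 4.99% at D10 and 2.55% at D10 against D4. DESeq2 called 2 of the 3 genes, SKP2 and CDK2, in the same comparisons. Its shares were 0.785%, 2.17% and 0.938% of genes with an adjusted p. SKP2, a ubiquitin ligase subunit that degrades CDK inhibitors, was lower at D7 and D10 than D0 (blocked edgeR with Benjamini-Hochberg adjustment, adjusted p = 0.0439 and 0.0285, and 0.310 and 0.151 without the block). CDK2, the kinase partner of cyclin E, was higher at D10 than at D0 and D4 (blocked edgeR with Benjamini-Hochberg adjustment, adjusted p = 0.0140 and 0.0364, and 0.100 and 0.315 without the block). CCND2, a D-type cyclin, was lower at D10 than D4 (blocked edgeR with Benjamini-Hochberg adjustment, adjusted p = 0.0205, and 0.973 without the block). CDK2 had 24.6, 25.5, 35.2 and 46.7 CPM in experiment 1 and 22.3, 27.5, 33.3 and 97.1 CPM in experiment 2, highest at D10 in both. For the donor construct, HRAS was assumed for the RAS part and ESR1 for the estrogen receptor part. The human HRAS gene had 33.2 to 66.1 CPM without a called change, and ESR1 had at most 0.298 CPM.

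The main values were also read without the D10 library of experiment 2. The median fitted change of the 42 genes was then -0.07 at D10 against D0, with 22 genes lower, and -0.35 at D10 against D4, with 35 lower, against -0.09 and 27 and -0.37 and 32 with all libraries. Without the D4 library of experiment 2, the median at D4 against D0 was 0.05 in place of 0.16, with 22 genes higher in place of 32, and at D10 against D4 it was -0.21. The width of the intervals, which come from the fit without the block, sets what could be seen in that fit. For RRM2 at D4 the 95% interval of the log2 fold change was 0.02 to 1.64, and for CLSPN, with 3 to 31 counts at D4, it was -1.39 to 2.79. The SE of these fold changes was 0.35 and 0.90 without the block, and 0.27 and 0.74 with it.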

How the data were processed

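Per the labels, poly(A) RNA of IMR90 fibroblasts from 2 independent experiments was sequenced from stranded libraries. The authors deposited raw counts per gene, which were used here, and 8 columns of normalized values, which were not. A header reading DO was taken as D0 replicate 1. The submitters' processing notes list STAR 2.5, DESeq2, GRCh38 and hg38. The counting program and strand setting are not given in the sources used here, so reads of overlapping genes cannot be told apart.

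The 8 libraries entered 1 edgeR model with a mean per group (edgeR 4.0.16, R 4.3.3, TMM, filterByExpr, glmQLFit and glmQLFTest), and p-values were adjusted by Benjamini-Hochberg over 13798 genes and called at 0.05. Alternatives were a replicate block, DESeq2 1.42.0, its size factors, a floor of 10 counts in each library or no floor, models of the compared groups alone and leaving out each library. Within-experiment log2 values used a prior count of 2. Errors and intervals of fold changes come from the model without the block. Each SE is the absolute log2 fold change divided by the square root of the F statistic. The median dispersion of the tested members was 0.071 without the block and 0.024 with it. The scripts were tested on simulated data. Replicate numbers pair libraries of 1 experiment, and deviations of same-numbered libraries correlated across genes, which are not independent replicates, with r of 0.418 to 0.722 in all 6 pairs of groups. Whether the experiments used separate cell stocks is not given, so p-values measure the spread between these libraries.

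The members, lists and tests were chosen with earlier results of these data known. Fold changes with errors are given for the 3 largest positive and negative changes among the members in each comparison and, at D10 against D4, for the 2 most abundant members of a role, and in addition for RRM2 and CDC6. Positions and overlaps come from GENCODE 29, which holds all 43 identifiers, 39 with the same version.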

Additional observations from a re-analysis of the deposited data

How the results depend on the processing

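No member was called in any of the 4 comparisons under any alternative. The number of all genes called did depend on the processing. At D4 it was 0, but 44 with DESeq2, 21 without a filter and 38 with the replicate block. At D7 it was 0, but 112, 93 and 172. At D10 it was 40, but 379, 371 and 688, and 20 with at least 10 counts in every library and 0 with the compared groups only. At D10 against D4 it was 1, but 149, 147 and 352, and 6 with DESeq2's size factors and 6 with the compared groups only. The block models the pairing of libraries by experiment and changed no call of a member. Leaving out 1 library gave 0 to 155 calls at D10, with 0 without either D0 library and 155 without D10 replicate 1, and 0 to 83 at D10 against D4, with 0 without either D4 library and 83 without D10 replicate 1. It called 0 at D4 and D7.

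The median change of the members ranged from 0.05 to 0.23 at D4, from -0.0030 to 0.28 at D7, from -0.23 to -0.068 at D10 and from -0.48 to -0.21 at D10 against D4 when 1 library was left out. Of 39 fold changes of 27 named members under 14 alternatives, 29 kept their direction throughout, and 10 reversed, each only when 1 library was left out and none of them called. Their values over the libraries left out were -1.71 to 1.54 for CLSPN, -1.90 to 0.013 for PRIM1 and -0.79 to 0.16 for POLA1 at D4, -0.62 to 0.049 for CCNE1 at D7, -0.11 to 0.69 for CDC45 at D10, and at D10 against D4 -2.04 to 0.93 for CCNE2, -0.28 to 0.16 for MCM4, -0.10 to 0.59 for LIG1, -0.11 to 0.22 for RRM1 and -0.047 to 0.11 for DNMT1. Scaling by library totals moved the median of experiment 2 at D10 from -0.11 to -0.06. Depth limits CLSPN, ORC1, GINS3, PRIM1, POLE2, CCNE2 and E2F2, which had fewer than 10 counts in at least 1 library.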
